A study of Mus musculus with 6 samples.

Results

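Ccl17 and Ccl22 encode 2 chemokines of dendritic cells, Ccr4 encodes their shared receptor on lymphocytes, and Ccr8 encodes a related receptor with other ligands. These 4 genes were taken by name, not by their values, from the 20882 gene columns of the count tables, and were followed across the leukocytes of the mouse lung. The cells were live CD45+ cells, the leukocytes, of mice aged 6 to 8 weeks from a humanized PD-1 strain, so every animal of both groups carried the human form of this inhibitory T cell receptor. One group had received isotype control (the tables mark its cells as Untreated) and the other a PD-1 agonist, and the study's title places them in neutrophilic asthma. The labels name 3 mice per group, mixed by cell hashing at about 50000 cells per group, and the cells were profiled on the 10x Genomics Chromium platform. The labels do not state antibody doses, times or the way in which the asthma was induced.

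Each group came as 3 tables. Tables of the same group had 2373 to 2736 cell barcodes in common per pair, 35.9% to 42.5% of the barcodes of the smaller one. Across groups a pair had 3 to 13 (0.0469% to 0.201%). The 3 tables were therefore read as parts of 1 pool of mice, each barcode was used once, and each treatment counted as 1 sample. The treatments could not be tested against each other, and an effect of treatment cannot be told apart from one of the library. After the authors' own filter and removal of called doublets, 10316 isotype and 11271 agonist cells remained, with a median of 2459 and 2156 counts per cell. Over these cells Ccl17 had 4476 counts in 330 isotype cells and 4825 in 417 agonist cells. Ccl22 had 2623 counts in 234 cells and 2472 in 230, Ccr4 had 153 in 116 and 155 in 120, and Ccr8 had 9 in 9 and 25 in 21.

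Chemokines are small secreted proteins that draw leukocytes along a gradient through receptors coupled to G proteins. CCL17 and CCL22 are made by dendritic cells and macrophages, above all when these mature or meet type 2 cytokines, and they attract T cells with CCR4, among them type 2 helper, regulatory and skin- or lung-homing cells. CCR8 binds CCL1 and, in the mouse, CCL8, and is known from type 2 lymphocytes and regulatory T cells of tissues. The pair of ligands is studied in asthma because it links the antigen-presenting cell to the lymphocytes that enter the airway wall.

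Both ligand genes lie on chromosome 8 of GRCm38, the assembly also called mm10. In the GENCODE annotation Ccl22 (ENSMUSG00000031779.3) spans 94745590 to 94751699 and Ccl17 (ENSMUSG00000031780.2) spans 94810453 to 94812036, both on the plus strand. Their starts are 64.9 kb apart, and Cx3cl1, the gene of a chemokine tethered to the membrane, lies between them at 94772009 to 94782427. Both receptor genes lie on chromosome 9, Ccr4 (ENSMUSG00000047898.7) on the minus strand at 114490316 to 114504916 and Ccr8 (ENSMUSG00000042262.5) on the plus strand at 120092114 to 120094906. All are protein-coding. In total 4 of 4 genes matched the promoter table of RefSeq (GRCm38.p6).

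The bases just upstream of the 2 ligand genes and of Ccr8 are shown because each of these genes was held mainly by a few cell classes. Capitals mark the STAT6-type match in Ccl17 and the GATA3-type match in Ccr8. Motifs were searched on both strands, and a match describes letters, not a bound site. Ccl17 (chr8:94810203-94810452, 250 bases, plus strand) holds 1 match to the STAT6-type motif, TTC and GAA with any 4 bases between them, at bases 97 to 106, ending 144 bases before the annotated start. STAT6 is the factor through which interleukins 4 and 13 act. The motif is found in 5.85% of 32851 RefSeq promoters over the same length of 250 bases. Ccl22 (chr8:94745434-94745589, 156 bases up to the annotated start) has no match to it. Ccr8 (chr9:120091883-120092113, 231 bases) holds the GATA3-type motif AGATAA, read on the other strand as TTATCT, at bases 12 to 17. It occurs in 9.99% of promoters and also once in that of Ccl17, where it is left in lower case. An NF-kappaB-type motif, GGG and TTTCC with any 2 bases between them, was found in none of the 4 promoters and in 1.41% of all.
Ccl17: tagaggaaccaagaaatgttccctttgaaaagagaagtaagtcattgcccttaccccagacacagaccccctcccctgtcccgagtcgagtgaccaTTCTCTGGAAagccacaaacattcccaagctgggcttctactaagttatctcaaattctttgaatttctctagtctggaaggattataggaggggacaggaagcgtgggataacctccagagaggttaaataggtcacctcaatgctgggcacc
Ccl22: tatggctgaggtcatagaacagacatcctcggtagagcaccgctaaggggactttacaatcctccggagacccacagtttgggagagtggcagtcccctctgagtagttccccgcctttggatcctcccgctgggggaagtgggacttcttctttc
Ccr8: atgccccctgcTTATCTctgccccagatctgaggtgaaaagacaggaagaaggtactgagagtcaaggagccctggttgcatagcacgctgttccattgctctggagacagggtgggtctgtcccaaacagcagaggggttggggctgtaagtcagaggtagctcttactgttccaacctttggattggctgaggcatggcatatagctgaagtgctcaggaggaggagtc

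Cells were clustered without any chemokine or chemokine receptor gene and named "-like" from marker lists. The label of these genes as dendritic holds for the ligands only. The named dendritic classes (migratory dendritic cells, which carry antigen to lymph nodes, and the conventional types 1 and 2) held 59.7% of the isotype and 52.1% of the agonist counts of Ccl17, and 87.8% and 82.5% of those of Ccl22. With the unnamed clusters that grouped with the dendritic cells, these shares were 82.1% and 78.0% for Ccl17 and 94.5% and 94.9% for Ccl22. Not all of these clusters were plainly dendritic. Those led by Cd209a and Apod and by Fscn1 had the T cell gene Cd3e in 52.8% and 47.8% of their cells. The one led by Plet1, with 19.1% and 19.7% of all Ccl17 counts, had the alveolar macrophage list as its closest. The receptors had no count in the named dendritic classes. The migratory class was named from its 16 markers, which are therefore no separate support for the name. They stood at 13737 and 12850 CPM in sum. Interstitial macrophage-like cells also had a count of all 16, at 549 and 594 CPM in sum. T cell clusters held 86.9% and 85.2% of the Ccr4 counts.

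Levels are given as CPM, the usual scaling of a gene's counts by the total of its class, adjusted between the 2 libraries with TMM factors, with 95% exact Poisson intervals that cover counting error only. They are compared between classes for 1 gene, not between genes. Migratory dendritic cell-like cells had the highest Ccl17 level of the 21 classes or clusters with at least 50 cells in each library. Their isotype level was 2065 CPM (1958 to 2175), from 1408 counts in 85 of 121 cells, and their agonist level 2003 CPM (1902 to 2109), from 1460 counts in 89 of 126 cells. Conventional dendritic cell type 2-like cells, the class that primes helper T cells, followed at 829 CPM (780 to 880; 56 of 197 cells) and 691 CPM (649 to 735; 77 of 227 cells). In the isotype library the order went on with type 1-like cells (541 CPM), an unnamed cluster led by Slc7a2, Gpnmb and Arg1 (218 CPM) and interstitial macrophage-like cells (67.5 CPM), and no neighbours among these overlapped. In the agonist library the last 3 overlapped with their neighbours, at 101, 146 and 140 CPM. The type 1 value rested on single cells, with 134 of 190 isotype counts and 36 of 42 agonist counts in 1 cell each.

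The cells richest in Ccl17 were too few for a class of their own. This cluster, led by Plet1, Mgl2 and Dcstamp, had 855 counts in 23 of 33 isotype cells and 951 in 36 of 43 agonist cells. The mean was 25.9 and 22.1 counts per cell. The cluster gave 19.1% and 19.7% of all Ccl17 counts, but its Ccl22 counts were 44 and 57. Mgl2 encodes a C-type lectin of type 2 dendritic cells and macrophages, and Dcstamp a membrane protein of cell fusion. The cluster held 10 of 10 markers of type 2 dendritic cells, its leading gene Mgl2 among them, at 2686 and 2759 CPM in sum. Of interstitial macrophages it held 7 of 9 (720 and 846 CPM), with Pf4 and Folr2 at 0. It also held 7 of 10 alveolar macrophage markers (1511 and 1425 CPM), with Marco, Krt79 and Atp6v0d2 at 0. Its leading genes Plet1 and Ear2 were among the 7. Classical monocyte markers were 7 of 7 (1816 and 1585 CPM). The sums with leading genes in them are thus no separate account of what the cluster is. Neutrophil markers, 8 of 8 with a count, were at 1104 and 282 CPM, and their part was not tested. B cell-like cells had a Ccl17 count in 20 of 1824 and 20 of 2139 cells (1.10% and 0.935%, median depths of 1615 and 1476 counts). At 8.24 and 6.95 CPM they lay above NK cell-like cells (0.583 and 1.76 CPM), without overlap of the intervals in either library. Other low classes were less apart. In agonist the B cell interval (4.58 to 10.1) overlapped those of neutrophil-like (2.27 to 6.70) and basophil-like cells (1.49 to 21.2), and nonclassical monocyte-like cells were at 12.7 CPM. In isotype (5.56 to 11.8) it overlapped basophil-like (0.0745 to 16.4) but not neutrophil-like cells (1.03 to 4.68). Plasmacytoid dendritic cell-like cells had 0 and 1 count in 125 and 165 cells; by the limit of 3 counts, 0 in 125 allows a share of cells with a count of up to 2.40%.

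**Figure D1:**
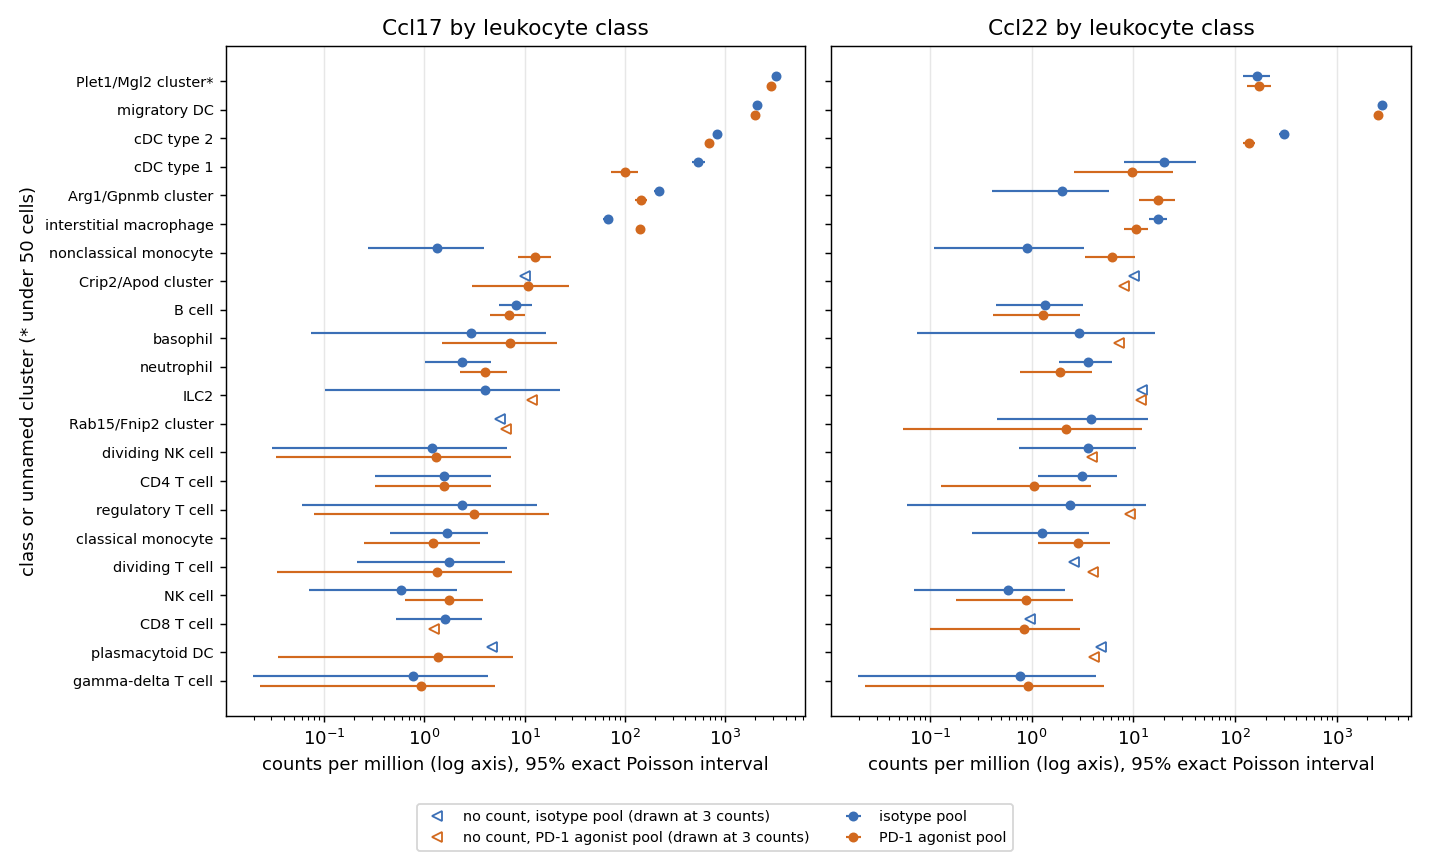
Levels of Ccl17 and Ccl22 in CPM on a log axis by class or unnamed cluster, isotype pool in blue and PD-1 agonist pool in orange, with lines for the 95% exact Poisson interval and open triangles at the level of 3 counts where no count was found (DC, dendritic cell; cDC, conventional dendritic cell; ILC2, type 2 innate lymphoid cell; the star marks under 50 cells). Migratory dendritic cell-like cells stand at 2065 and 2003 CPM for Ccl17 and at 2793 and 2515 for Ccl22, the Plet1 and Mgl2 cluster at 3221 and 2883 for Ccl17 but 166 and 173 for Ccl22.

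Ccl22 was more tightly held than Ccl17. Migratory dendritic cell-like cells gave 72.6% of its isotype counts and 74.2% of its agonist counts, against 31.5% and 30.3% for Ccl17. Their level was 2793 CPM (2669 to 2922; 112 of 121 cells) and 2515 CPM (2401 to 2633; 107 of 126 cells). Among classes and clusters of at least 50 cells per library, type 2-like cells were the next at 301 CPM (272 to 333) and 138 CPM (119 to 158). Of the smaller clusters, the Plet1 cluster was at 166 and 173 CPM. An unnamed cluster led by Fscn1, Tbc1d4 and Cacnb3, of 10 and 13 cells, was at 906 and 1930 CPM (83 and 186 counts). That cluster stayed unnamed because 47.8% of its cells had a count of the T cell gene Cd3e. Its median depths were 8850 and 7482 counts. Interstitial macrophage-like cells (17.6 and 10.7 CPM) and type 1-like cells (19.9 and 9.61 CPM) overlapped with each other, and B cell-like cells held 5 counts in each library. The unnamed cluster led by Slc7a2 had 3 isotype counts of Ccl22 in 1 cell and 27 agonist counts in 6 cells (17.5 CPM), of which 17 were in 1 cell.

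Within the migratory class both genes varied between its clusters. The larger cluster, led by Fscn1 (fascin, the actin bundler of mature dendritic cells), had a mean of 12.5 and 12.1 Ccl22 counts per cell in 100 and 89 cells. The smaller, in which Aldh1a2 (a retinaldehyde dehydrogenase that makes retinoic acid) was also among the leading genes, had 31.2 and 20.5 counts per cell in 21 and 37 cells, with a count in 21 of 21 and 33 of 37. Ccl17 did not follow this order. Its mean was 12.7 and 11.8 counts per cell in the larger and 6.43 and 11.1 in the smaller cluster. Thus the Aldh1a2 cluster held more Ccl22 per cell in each library, and no more Ccl17.

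Type 2-like cells were uneven in the same way. A cluster led by Cd209a and Il4i1, the gene of an amino acid oxidase, held 359 of the 391 isotype and 135 of the 202 agonist Ccl22 counts of the class, in 60 and 47 cells. Its Ccl17 counts were 619 and 306. The cluster led by Cd209a and Ppp1r14a held 443 and 621 counts of Ccl17 in 82 and 103 cells, with 30 and 61 of Ccl22. A single cell of the Il4i1 cluster held 152 of its isotype Ccl22 counts, and another held 66 of its agonist counts. In isotype Ccl22 was thus held mainly by the Il4i1 cluster. In agonist its lead in summed counts over the Ppp1r14a cluster rested largely on that 1 cell. The Il4i1 cluster had fewer agonist cells, though, 47 against 103, so the sums do not compare the clusters per cell. Both clusters held much of the Ccl17.

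The counts were also unequal between cells. In migratory cells with the gene, Ccl17 ranged from 1 to 191 counts per isotype cell (median 5) and from 1 to 112 per agonist cell (median 6), and Ccl22 from 1 to 190 (median 8) and from 1 to 103 (median 7). The 5 richest cells held 37.2% and 30.8% of the Ccl17 counts of the class. Cells with Ccl17 had a median total of 5993 and 6155 counts, against 3811 and 4043 for those without.

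Most migratory cells with Ccl17 also held Ccl22, and the reverse was less complete. Of 85 isotype and 89 agonist cells with Ccl17, 97.6% and 88.8% held Ccl22. Of 112 and 107 cells with Ccl22, 74.1% and 73.8% held Ccl17. After each cell was thinned to 2000 counts these last shares were 67.4% and 57.8%. In type 2-like cells only 41.1% and 31.2% of those with Ccl17 held Ccl22, in the Plet1 cluster 43.5% and 27.8%, and in interstitial macrophage-like cells 21.3% and 10.8%. Most cells with Ccl17 in these classes and this cluster thus had no Ccl22 count. Ccl22 was also rarer in type 2-like cells as a whole, found in 34 of 197 and 32 of 227. In the migratory class it was found in 112 of 121 and 107 of 126 cells. The shares were not adjusted for this, so they do not show a pairing special to the migratory class. Of type 2-like cells with Ccl22, 68.2% and 66.7% held Ccl17 after thinning to 2000 counts, no less than in the migratory class.

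**Figure D2:**
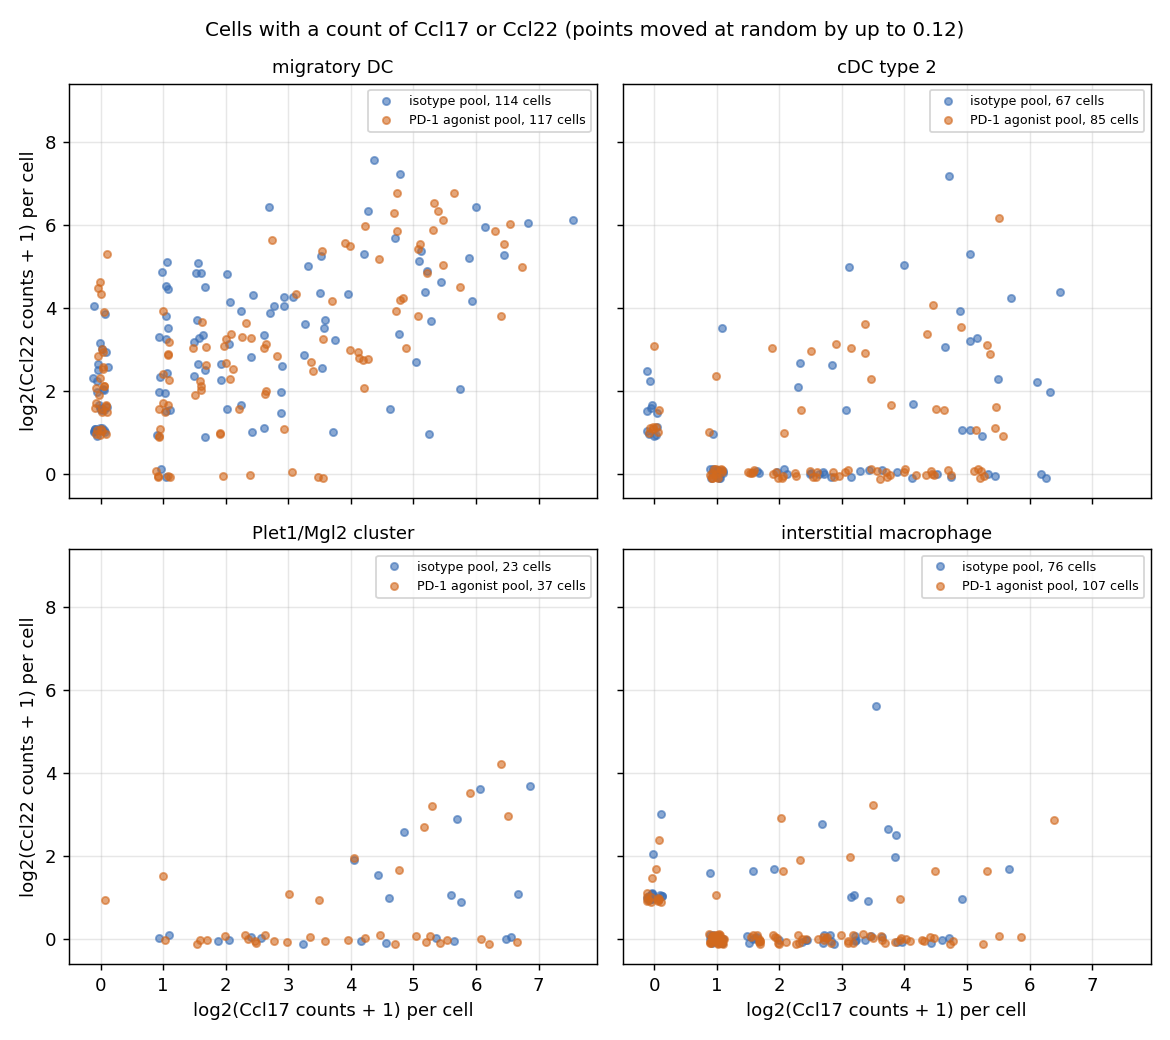
Counts of Ccl22 against Ccl17 in single cells with a count of either, both as log2 of the count plus 1, each point 1 cell moved by at most 0.12 to part overlapping points, isotype in blue and PD-1 agonist in orange. Most points of the migratory class have both genes, while many type 2-like cells, cells of the Plet1 cluster and macrophages lie on the line with Ccl17 alone.

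The comparison of treatments asked whether the agonist library differed in these genes within a class. A pair of gene and class was given a log2 ratio of agonist over isotype where it had at least 50 counts over both libraries, with a 95% exact Clopper-Pearson interval for counting error, and was called higher or lower at a fold of at least 1.5. Of 12 such pairs 1 was higher, 3 were lower and 8 were neither. In migratory dendritic cell-like cells neither ligand passed that fold. Ccl17 was at -0.04 (-0.15 to 0.06) and Ccl22 at -0.15 (-0.24 to -0.06), in a class where 13.2% of all genes tested passed the fold in either direction. The 3 tables of a group, which are overlapping parts of its pool, ranged from 1640 to 2477 CPM for Ccl17 in isotype and from 1739 to 2142 in agonist, wider apart than the pools themselves.

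In type 2-like cells, where 10.8% of genes passed the fold, Ccl22 was lower in the agonist library, at 138 against 301 CPM (log2 ratio -1.13, -1.38 to -0.88). A single isotype cell held 152 of the 391 counts and a single agonist cell 66 of the 202. Without these cells the ratio was -0.99, and without the first isotype table it was -0.31, under the fold. The shares of cells with Ccl22 were close, at 34 of 197 (17.3%) and 32 of 227 (14.1%). Ccl17 in the same cells was at -0.26 (-0.39 to -0.14). Neutrophil markers, 8 of 8 with a count, moved with this comparison, at 304 and 783 CPM in sum; their part in it was not tested.

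In type 1-like cells (16.5% of genes past the fold) Ccl17 was at -2.42 (-2.94 to -1.93), with most counts in 1 cell of each library as above. Without the second isotype table the ratio was 1.42, the opposite direction. Markers of alveolar macrophages (6 of 10 with a count, 433 and 142 CPM) and of neutrophils (8 of 8, 519 and 192 CPM) were lower in the agonist library too, and their part was not tested. In the unnamed cluster led by Slc7a2, Gpnmb and Arg1 (9.54%) Ccl17 was at -0.58 (-0.84 to -0.34) and at -0.24 without the richest cells, or 0.27 without the first isotype table. Neutrophil markers, 8 of 8 with a count, were at 280 and 2367 CPM in this cluster, and their part was not tested. In B cell-like cells (7.36%) Ccl17 was at -0.25 (-1.05 to 0.55).

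Interstitial macrophage-like cells, the C1q macrophages of the lung wall, gave the only higher pair. Ccl17 was at 67.5 CPM (61.0 to 74.5) in isotype and 140 CPM (130 to 150) in agonist, a log2 ratio of 1.05 (0.87 to 1.23), where 8.42% of genes passed the fold. The richest cells held 50 and 77 counts, and without them the ratio was 1.08. Single tables gave 54.0 to 67.0 CPM in isotype and 111 to 146 in agonist and did not overlap, though they share cells. A count was found in 61 of 984 isotype cells (6.20%) and 93 of 903 agonist cells (10.3%), or in 3.64% and 8.01% of the cells thinned to 2000 counts.

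A finer clustering of the same cells, at resolution 2, placed most of these counts in one small cluster. It was led by Mmp12 (a macrophage elastase), Mgl2, Plet1, Ear2 and Dcstamp, all of which were also among the leading genes of the unnamed cluster richest in Ccl17, and it stayed without a name. With 84 isotype and 120 agonist cells it held 248 of the 395 and 578 of the 732 Ccl17 counts (62.8% and 79.0%). A count was seen in 27.4% of its isotype cells (18.2% to 38.2%) and 43.3% of its agonist cells (34.3% to 52.7%). The main C1q cluster of 659 and 615 cells held 141 and 151 counts, at 29.5 and 38.0 CPM. When the classes were named again at this resolution, the log2 ratio of Ccl17 in interstitial macrophage-like cells was 0.30, below the fold. The small Mmp12 and Mgl2 cluster was thus larger in the agonist library and also had the higher Ccl17 level, 631 against 367 CPM.

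Macrophages with Ccl17 differed in some other genes from those without, over cells thinned to 3000 counts. Mgl2 was found in 35.8% of isotype and 44.7% of agonist cells with Ccl17, against 19.6% and 17.1% of those without. Ear2, a ribonuclease gene, was found in 26.4% and 56.5% against 15.4% and 20.1%. Its isotype intervals overlapped (15.3% to 40.3% against 12.7% to 18.4%). Apoe, the lipid carrier typical of these macrophages, went the other way, with 32.1% and 45.9% against 65.1% and 74.8%. Clec10a, like Mgl2 a marker of type 2 dendritic cells, did not follow Mgl2. It was at 9.43% and 3.53% against 8.39% and 11.7%, with overlapping intervals. Cd209a and Fscn1, defining genes of type 2 and migratory dendritic cells, were each at 0% (up to 6.72%) in isotype and 1.18% in agonist cells with Ccl17. In the class as a whole the 10 markers of type 2 dendritic cells summed to 1465 and 1440 CPM and the 16 of migratory cells to 549 and 594 CPM, all with a count. Ccr7, a migration gene of dendritic cells, was at 23.1 and 49.2 CPM in the class (59 and 106 cells, log2 ratio 1.09), and its part in the Ccl17 ratio was not tested. Ccl22 in these macrophages was at -0.72 (-1.22 to -0.24), but 1 isotype cell held 49 of 103 counts and the ratio without the richest cells was -0.04. Without the first isotype table it was 0.38.

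**Figure D3:**
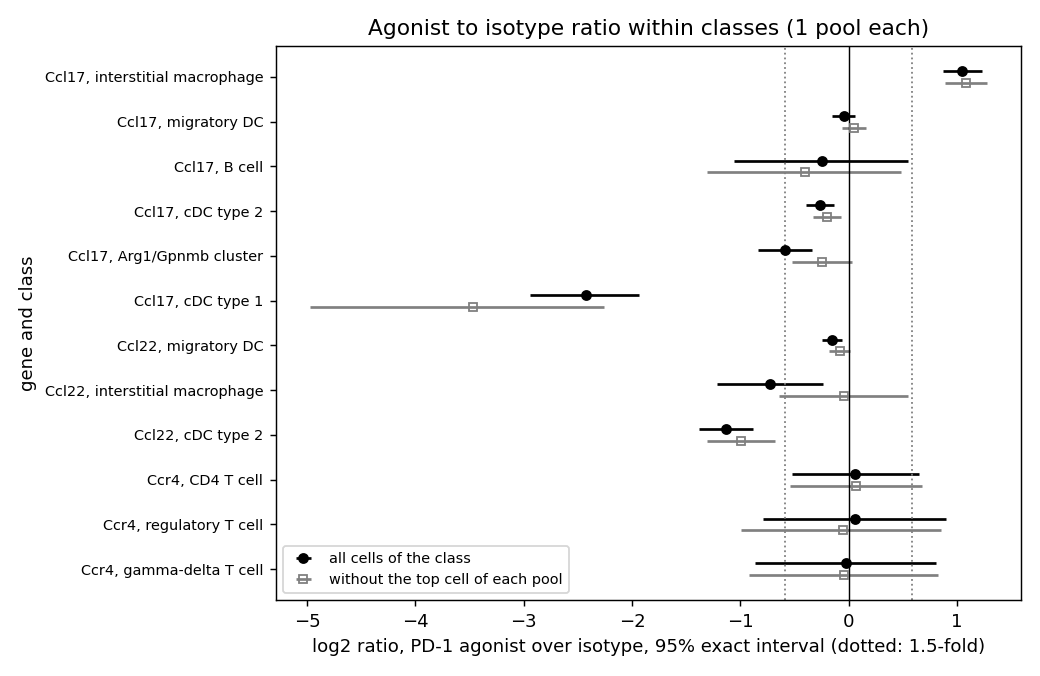
Log2 ratios of agonist over isotype for the 12 pairs of gene and class with at least 50 counts, as black points, and without the richest cell of each library, as open grey squares, with lines for the 95% exact interval of counting error and dotted lines at 1.5-fold. Ccl17 in interstitial macrophage-like cells lies at 1.05, Ccl22 in type 2-like cells at -1.13, and Ccl22 in macrophages moves from -0.72 to -0.04 without the richest cells.

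Genes that induce the ligands or mark the migration of dendritic cells were read in the migratory class, where the median log2 ratio of all genes was -0.03. Of 15 measured inducers (receptors and factors of type 2 cytokines, GM-CSF and NF-kappaB), 0 were higher, 0 lower and 15 neither, with a median of 0.00, where 13.2% of all genes passed the fold. The NF-kappaB subunit genes Rel (918 and 972 CPM), Relb (598 and 534 CPM) and Nfkb1 (431 and 509 CPM) and the dendritic cell factor gene Batf3 (522 and 439 CPM) had the highest levels. Of 12 genes of migration and maturation 1 was higher, 1 lower and 10 neither, with a median of 0.03. Ccr7, the receptor that leads these cells to lymph nodes, was at 3823 and 3818 CPM, the chemokine gene Ccl5 at 2849 and 3849, the chemokine gene Cxcl16 at 908 and 930 and the maturation gene Cd83 at 878 and 808. The higher one was Il12b, a chain of interleukin 12 (30.8 and 106 CPM, 1.78), with only 21 counts in 6 isotype cells and 77 in 15 agonist cells. The lower one was Icosl, the ligand of ICOS (99.7 and 30.2 CPM, -1.72), with 68 counts in 38 cells and 22 in 14. Dpp4, a protease that trims CCL22, was at 208 and 191 CPM (-0.13). The scavenger receptor gene Ackr2 had no count there. S100a9, a neutrophil gene read as free RNA, had 16 and 39 counts in the same class (log2 ratio 1.19), and its part in these values was not tested.

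Ccr4 was a gene of T cell subsets. It was highest in the Foxp3-bearing regulatory T cell-like cells, which restrain immune responses, at 68.9 CPM (46.1 to 98.9) in isotype and 71.9 CPM (45.6 to 108) in agonist, with a count in 22 of 143 and 16 of 104 cells. CD4 T cell-like cells were at 26.7 CPM (19.9 to 35.1) and 27.9 CPM (20.9 to 36.5), and gamma-delta T cell-like cells at 22.4 and 22.1 CPM. These overlapped with each other and lay below the regulatory cells in both libraries. Type 2 innate lymphoid cell-like cells had 2 and 5 counts, with an agonist interval of 6.44 to 46.3 CPM that reached the regulatory cells, and dividing T cell-like cells 5 and 13. NK cell-like cells had 0 counts in 1116 and 1221 cells, and B cell-like cells 2 and 0. By share of all Ccr4 counts, CD4 cells gave 33.3% and 34.2%, regulatory cells 19.0% and 14.8% and gamma-delta cells 19.0% and 15.5%.

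The log2 ratios of Ccr4 were 0.06 in regulatory T cells (-0.79 to 0.90), 0.06 in CD4 T cells (-0.52 to 0.65) and -0.02 in gamma-delta T cells (-0.86 to 0.81). Without the first agonist table the gamma-delta ratio was -0.87 (-2.07 to 0.21), past the fold but with an interval across 0. In these classes 14.0%, 8.95% and 10.1% of genes passed the fold. In regulatory and gamma-delta cells the intervals were wider than 1.5-fold on both sides, so a difference of that size was not detectable at this depth.

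**Figure D4:**
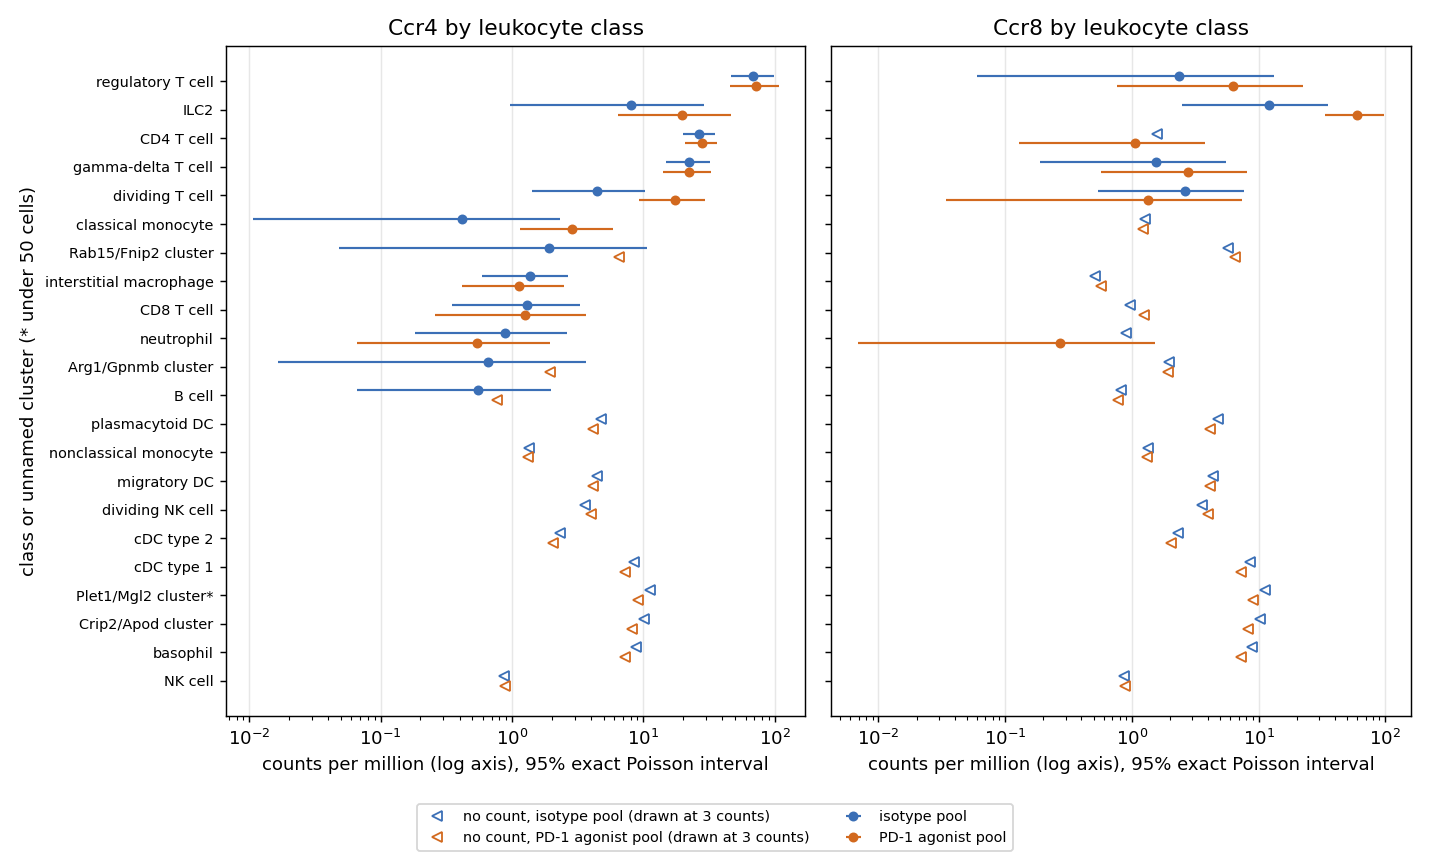
Levels of Ccr4 and Ccr8 in CPM on a log axis by class for both pools, with lines for the 95% exact Poisson interval and open triangles at the level of 3 counts where no count was found. Ccr4 is highest in regulatory T cell-like cells at 68.9 and 71.9 CPM, and Ccr8 in type 2 innate lymphoid cell-like cells (ILC2) at 12.1 and 59.5 CPM.

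Within each class most cells with Ccr4 lay in 1 of its clusters, in both libraries. In the CD4 cluster led by Icos, a costimulatory receptor of activated T cells, 32 of 266 isotype cells and 44 of 256 agonist cells (17.2%) had a count. In the CD4 cluster led by Igfbp4, a gene of resting T cells, it was 2 of 495 and 0 of 589. The regulatory cluster led by Foxp3, Tnfrsf4 and Ikzf2 had 22 of 102 (21.6%) and 16 of 77 (20.8%), while that led by Gpr83 had 0 of 41 and 0 of 27, which allow shares of cells with a count of up to 8.60% and 12.8% by the exact binomial interval. The Gpr83 cells were shallower, with medians of 2193 and 1866 counts against 2822 and 2930. After thinning to 2000 counts 0 of 26 and 0 of 12 (up to 13.2% and 26.5%) stood against 13 of 81 (8.83% to 25.9%) and 9 of 60 (7.10% to 26.6%), so these shares overlapped. The gamma-delta cluster led by Pxdc1 had 20 of 117 (17.1%) and 19 of 105 (18.1%), and that led by Ikzf2 and Tcrg-C2 had 4 of 201 and 3 of 158. The gamma-delta clusters had similar median depths, 3665 isotype counts per cell in the Pxdc1 and 3479 in the Ikzf2 cluster, while the CD4 clusters had 2729 and 2006. After thinning to 2000 counts the Icos cluster was at 7.29% and 12.5% and the Pxdc1 cluster at 15.7% and 4.71%.

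**Figure D5:**
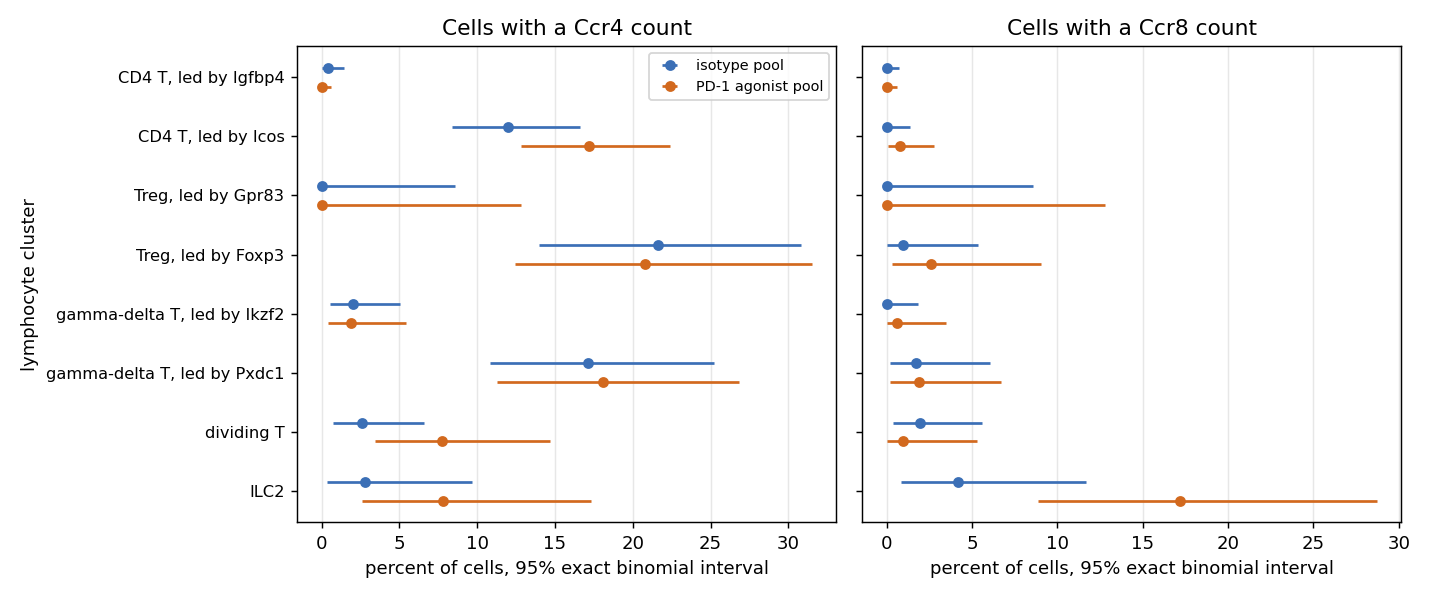
Percent of cells with a Ccr4 or Ccr8 count in each T cell or innate lymphoid cluster, isotype and agonist side by side, with 95% exact binomial intervals. For Ccr4 the Foxp3 and Pxdc1 clusters lie between 17.1% and 21.6% and the partner clusters at or below 1.99%.

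Cells with Ccr4 were compared with those without inside these clusters, both libraries together and each cell thinned to 1500 counts, for the genes of the type 2, regulatory and homing lists and Il17a, 38 in all. In the Icos cluster Ccr6, a homing receptor of type 17 and memory cells, was found in 8 of 73 cells with Ccr4 (4.85% to 20.5%) and 9 of 381 without (1.09% to 4.44%). That was the only one of the 38 genes, in any of the 3 clusters, whose exact binomial intervals did not overlap. Icos was at 82.2% and 67.7%, Ccr7 at 6.85% and 18.6%, Il17a in 8 and 14 of these cells and the type 2 factor gene Gata3 at 30.1% and 23.4%, with overlapping intervals. In the Foxp3 cluster Ccr6 was at 11.1% of 36 and 2.44% of 123 cells, and Il1rl1, the interleukin 33 receptor, at 55.6% and 41.5%. In the Pxdc1 cluster Gata3 was at 36.8% of 38 and 21.3% of 169 cells, and Ccr6 at 2.63% and 11.2%.

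Other genes of these T cells were counted in the same classes. In regulatory T cell-like cells, 13 of 16 effector genes could be measured, of which 1 was higher, 1 lower and 11 neither, with a median of -0.04 against -0.06 for all genes. Of all genes in this class 14.0% passed the fold. Those with the highest levels were the factor gene Ikzf2 (2109 and 2024 CPM), the inhibitory receptor gene Ctla4 (1985 and 2330), the interleukin 2 receptor gene Il2ra (1118 and 1070) and Icos (1023 and 1042). The receptor gene Klrg1 was higher (1.09) and the factor gene Prdm1 lower (-0.85). Of 7 measured homing receptors in these cells 1 was higher, 1 lower and 5 neither, with a median of -0.09, and the lower one was Cxcr4 (354 and 206 CPM, -0.78). Ccr2 (437 and 416 CPM) and Ccr7 (359 and 338 CPM) were among the most abundant. In CD4 T cell-like cells 1 of 8 homing receptors, Cxcr3, was lower (-0.60), 7 were neither, and none was higher, where 8.95% of all genes passed the fold, with a median of -0.44 against -0.005 for all genes. S1pr1, the receptor for leaving tissue (643 and 828 CPM), Ccr7 (547 and 707) and Cxcr4 (231 and 173) were among the most abundant there. Of 3 type 2 genes measured there Il1rl1 was lower (33.0 and 15.8 CPM, -1.06), while Gata3 (188 and 135 CPM) and the receptor gene Crlf2 (50.8 and 45.8 CPM) were neither. The CD4 class joined the Igfbp4 cluster of 495 and 589 cells and the Icos cluster of 266 and 256. The part of this mix in the CD4 values was not tested. Neutrophil markers (8 of 8 with a count) summed to 112 and 447 CPM in the regulatory cells, and their part was not tested.

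Ccr8 was seen in few cells. Type 2 innate lymphoid cell-like cells, which make type 2 cytokines without antigen, had the most counts, with 3 in 3 of 72 isotype cells (4.17%, 0.868% to 11.7%) and 15 in 11 of 64 agonist cells (17.2%, 8.90% to 28.7%). Their levels were 12.1 CPM (2.49 to 35.2) and 59.5 CPM (33.3 to 98.1), whose intervals overlap. In the agonist library this was the only class above the floor of 3 counts, and in isotype no class was. The rest were 1 and 2 counts in regulatory, 2 and 3 in gamma-delta, 3 and 1 in dividing and 0 and 2 in CD4 T cell-like cells, with 1 agonist count each in neutrophil-like cells and a small unnamed T cell cluster. B cell-like and NK cell-like cells had none. Cells thinned to 2000 counts gave 3.77% and 13.7%. With the record of lowest total per barcode the class had 7 and 15 counts, without the second isotype table it had 5 and 15, and with per-cell marker gates 2 and 4. Neutrophil markers, 8 of 8 with a count, summed to 64.3 and 983 CPM in these innate cells, and their part was not tested.

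In the same innate cells 18.9% of genes passed the fold, and Ccr8 had too few counts to be given a ratio. Of the type 2 genes 3 could be measured. The cytokine gene Il5 was higher (173 and 325 CPM, 0.91, 0.36 to 1.48), while Il1rl1 (2515 and 2089 CPM) and Gata3 (1459 and 1376 CPM) were neither, and the median was -0.08 against 0.01 for all genes. Ccr4 and Ccr8 were seldom found together, in 1 isotype cell and 3 agonist cells, of which 2 were innate lymphoid. Of the ligand genes of CCR8, Ccl1 had 9 counts in 6 isotype and 9 in 4 agonist cells of the same innate class. It had 174 counts in 7 isotype and 119 in 6 agonist CD4 T cell-like cells, with 124 and 65 of them in 1 cell each. Ccl8 had 735 counts in 73 interstitial macrophage-like cells and 2000 in 100, at 126 and 381 CPM (log2 ratio 1.60), and 1 agonist cell held 31.6% of the latter. In the unnamed cluster led by Slc7a2 it was at 361 and 253 CPM (-0.52), the opposite direction.

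The genes most alike to each member were read from Pearson's r of log2(CPM + 1) over the 42 sums of 21 classes and 2 libraries, among 15020 genes. These sums share libraries, so r is a description. For Ccl22 the closest was Aldh1a2 (0.92), followed by Chst7 (0.90), Scn2b (0.89), Cx3cl1 (0.88), its neighbour on the chromosome with 58 counts in all, and Adam23 (0.86). For Ccl17 they were the purine receptor gene P2rx5 (0.90), the serotonin receptor gene Htr7 (0.88), Tspan33 (0.87), Chst7 and Gm37121 (0.86 each). The pair itself was at 0.85. For Ccr4 they were the death receptor gene Tnfrsf25 (0.91), Gm37039 (0.89), Camk4 and the T cell adaptor gene Trat1 (0.88 each) and Podnl1 (0.87). For Ccr8, with 33 counts, they were Gm47050 (0.91), Npnt (0.86), Gm6213 (0.84), Pcsk1 (0.84) and Stc2 (0.83).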

How the data were processed

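Live CD45+ lung cells of humanized PD-1 mice were measured in 6 tables, 3 labelled isotype and 3 PD-1 agonist. The deposited tables hold 1 record per cell with 20882 gene columns of expected counts, which need not be whole (99.0% of the values in a table were), and no normalization by the authors was evident. The values of Ccl17, Ccl22, Ccr4 and Ccr8 were all whole. The authors' total count per cell comes from a column of its own, per the file headers. The submitters' processing notes name Partek and mm10. The aligner is not given in the sources used here. Tables held 6393 to 6749 records and 21556545 to 29749815 counts.

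The labels' groups were used. Of each treatment every barcode was kept once, from the record with the highest total (12448 and 13728 cells), and cells outside the authors' filter column were left out (11106 and 12216 remained). Doublets were called with Scrublet in scanpy 1.11.5 (rate 0.1, score threshold 0.25) and removed, 790 (7.11%) and 945 (7.74%). Cells were clustered on 2000 variable genes without chemokine and chemokine receptor genes, with 30 components, 15 neighbours and Leiden resolution 1 (leidenalg 0.10.2). T cells and dendritic cells were clustered again. Of 45 clusters, 34 were named from 25 marker lists into 19 classes and 11 stayed unnamed. Counts were summed per class and library, and totals were scaled with TMM factors computed in Python 3.11.15. A level needed 50 cells per library, a ratio 50 counts over both, and a call 1.5-fold. Intervals are exact at 95%. They cover the error of counting and no other. The counting was tested on simulated data. Because each treatment is 1 sample, no p-value was computed.

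The genes and lists were chosen with earlier results of these data known. Named were the 4 members, the 4 genes with the highest level of each list in the class of its member, those past 1.5-fold, and the 5 genes most alike to each member. Some genes that this rule would name are not reported here. The genes shown for cells with and without Ccr4 or Ccl17, and the clusters named by leading genes, were picked after their values were seen. Alternatives were another choice of record, doublets kept, no filter, resolution 2, chemokine genes kept in the clustering, per-cell marker gates, no TMM factors, the top cell left out and each table left out. Adding the Plet1 and Mgl2 cluster to the type 2-like class, or a mixed Fscn1 cluster to the migratory class, was chosen after seeing the data.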

Additional observations from a re-analysis of the deposited data

How the results depend on the processing

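Of 364 values under other settings 293 stayed within the counting interval of the reported value, 65 moved outside it and 6 reversed, counting a change of sign only for ratios past 1.5-fold; where not stated otherwise the cause was not tested. Reversed were Ccl17 in type 1-like cells, at 0.17 with per-cell marker gates and 1.42 without the second isotype table, and Ccl22 in interstitial macrophage-like cells, at 0.71 without the authors' filter, 0.045 at resolution 2, 1.21 with the gates and 0.38 without the first isotype table. Ccl17 in type 2-like cells was at -0.67 without the filter, -0.086 at resolution 2, -0.12 with chemokine genes in the clustering and 0.27 with the gates. Ccl17 in macrophages was at 0.30 at resolution 2 and 0.55 with chemokine genes in the clustering, both under 1.5-fold. Ccl17 in migratory cells was at -0.27 without the filter. Ccl22 was at -0.87 with doublets kept and -0.29 with the gates in type 2-like cells, and at -0.25 and -0.28 in migratory cells. The migratory share of Ccl17 was 29.1% and 24.4% (isotype, agonist) without the filter, 17.2% and 19.3% with the gates and 28.4% and 28.6% without the top cell. Its share of Ccl22 was 57.5% and 62.0% with the gates, 70.5% for isotype without the top cell, and for agonist 70.1% with doublets and 71.4% without the filter. The CD4 share of Ccr4 was 23.5% and 26.6% with doublets and 18.7% for agonist with the gates. The agonist share of Ccr8 in type 2 innate cells was 16% with the gates, and 57.8% of agonist migratory cells with Ccl22 held Ccl17 after thinning. Leaving out each table gave -1.70 to -0.31 for Ccl22 and -0.39 to -0.16 for Ccl17 in type 2-like cells, 0.86 to 1.18 for Ccl17 and -0.86 to 0.38 for Ccl22 in macrophages, -2.69 to 1.42 for Ccl17 in type 1-like cells, and -0.13 to 0.24 for Ccl17 and -0.27 to -0.018 for Ccl22 in migratory cells. For Ccr4 they were -0.24 to 0.35 in CD4, -0.87 to 0.23 in gamma-delta and -0.26 to 0.31 in regulatory T cells, and for Ccl17 in the cluster led by Slc7a2 -0.74 to 0.27. Shares ran from 23.8% to 37.3% and 28.2% to 33.2% for Ccl17 and 69.8% to 76.7% and 74.2% to 76.7% for Ccl22 in migratory cells, 29.4% to 40.0% and 32.2% to 37.5% for Ccr4 in CD4 cells, and 25% to 50% and 57.1% to 65.2% for Ccr8. No paired analysis was possible because each treatment is 1 pool and no test was made. Depth limits Ccr8 most, with 9 and 25 counts in all.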
